A study of Arabidopsis thaliana with 18 samples.

Results

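The salt response of C4 roots compares 3 RNA libraries of Arabidopsis thaliana roots given 150 mM NaCl with 3 libraries of roots given 0 mM. These 6 libraries were taken by their labels from the 18 samples of the series, and 21367 of the 24532 genes in the count table had enough reads to be tested. C4 is 1 transgenic line that carries the isoprene synthase cDNA of Eucalyptus globulus, with its own plastid transit peptide, behind the Arabidopsis rbcS-1A (RBCS1A) promoter and before an octopine synthase terminator. Both C4 groups carry that transgene, so the comparison is of salt within 1 line, and events particular to that insertion cannot be told apart from isoprene. The other groups, used only beside C4, are roots labelled WT (3 distinct libraries at 0 mM, after 2 near-identical columns were counted as 1, and 2 at 150 mM) and roots of a second isoprene synthase line, B2 (3 and 3). The growth protocol names an empty-vector line as the non-emitting control, and no label says whether WT stands for that line. The treatment protocol describes lower salt doses on plates; for the 150 mM libraries, plant age and length of exposure are not stated. Nothing in the labels ties the libraries of a group to different plants or cultures, and p-values therefore describe only how these libraries varied, which may be technical.

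Libraries of C4 held 54233853 to 85151218 counts. All 20 root markers were detected at a mean above 1 on the CPM scale (counts of each library scaled to a common total), with a summed level of 12307 to 13547 CPM at 0 mM and 9429 to 10969 CPM at 150 mM. With salt, 4 of these 20 fell and 0 rose (1 to 4 falling with 1 library left out), and their median log2 fold change was -0.33. Of 10 seed storage markers 7 were at 0 in all 6 libraries, as were 3 of 8 stomatal and leaf epidermis markers (MUTE, FMA and MYB0), and no other member of either list reached a mean of 1 CPM. The 51 green tissue markers, of which RBCS1B and RBCS2B were at 0, summed to 512 to 794 CPM at 0 mM and 824 to 888 CPM at 150 mM. Of 48 tested green tissue members 2 rose and 0 fell, beside 6.69% and 5.44% of all genes tested. In the same list 0 rose without the 2 libraries described below that go against their labels, and 10 with only the C4 libraries fitted. Their part in the results below was not tested. MRD1, whose level separates the isoprene lines from most WT libraries, lay at 34.3, 39.4 and 32.8 CPM and 44, 41.8 and 43.6 CPM in the C4 groups. By contrast, MRD1 stood at 33.4 CPM in the library labelled WT 150 mM replicate 2 and at 0.0499 CPM in the one labelled B2 0 mM replicate 3, against 0.0965 to 2.06 CPM in the other WT libraries and 36.3 to 43.1 CPM in the other B2 libraries. Those 2 libraries go against their labels and enter only the shared estimate of spread and the comparisons with WT and B2.

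Salt lowers the water potential around a root, and roots respond partly through abscisic acid (ABA). ABA bound by PYR/PYL receptors inhibits clade A protein phosphatases 2C, which frees SnRK2 kinases to activate transcription factors of the ABF and ABI5 group. These factors bind the ABA-responsive element (ABRE) before genes for late embryogenesis abundant (LEA) proteins and other protectants, while DREB factors bind the dehydration-responsive element (DRE).

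On the first principal component of the 6 C4 libraries, with 49.9% of the variance, the 0 mM libraries scored -58.9 to -43 and the 150 mM libraries 42.9 to 61.5. The second component, with 16.5%, set replicate 2 at 150 mM (54.5) apart from replicates 1 (-43) and 3 (-20). By edgeR's quasi-likelihood test with Benjamini-Hochberg adjustment at 0.05, 1430 genes rose (6.69% of genes tested) and 1162 fell (5.44%). Of these, 666 rose (3.12% of genes tested) and 518 fell (2.42%) by at least 2-fold, and 108 rose and 39 fell by at least 8-fold. The median log2 fold change over all genes tested was -0.002. For each gene list below, the counts of members are to be read beside 6.69% rising and 5.44% falling among all genes tested. Levels in the 3 salt libraries were all above or all below those in the 3 control libraries for 1401 of the genes that rose and 1143 of those that fell; over all genes tested, 18.2% lay apart upward and 16.5% downward. The count of 2592 called genes was 1310 without replicate 2 at 150 mM, 1360 without replicate 3 at 0 mM, 1441 without replicate 1 at 0 mM and 1454 without replicate 3 at 150 mM.

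Genes of dehydration tolerance were among the steepest rises. Of 32 measured members of the ABA and dehydration list, 27 rose and 0 fell (22 to 27 with 1 library left out, lowest without 0 mM replicate 1), against 6.69% of all genes tested, and the median log2 fold change was 2.5. The list had been drawn up with earlier results of these data known. Promoters of 4 steeply rising genes, of which GolS2 is outside this list, are shown for the ABRE and DRE letters they hold. Each is the 300 bases before the annotated gene start in the TAIR10.1 RefSeq assembly, 5′ to 3′ on the gene's strand, with ABRE (ACGTGGC or ACGTGTC), DRE (ACCGAC or GCCGAC) and G-box (CACGTG) matches on either strand in capitals. They are LTI65 (chr5:21236721-21237020, plus strand), LTI78 (chr5:21240417-21240716, plus strand), LEA7 (chr1:19619424-19619723, plus strand) and GolS2 (chr1:21207237-21207536, plus strand).
LTI65: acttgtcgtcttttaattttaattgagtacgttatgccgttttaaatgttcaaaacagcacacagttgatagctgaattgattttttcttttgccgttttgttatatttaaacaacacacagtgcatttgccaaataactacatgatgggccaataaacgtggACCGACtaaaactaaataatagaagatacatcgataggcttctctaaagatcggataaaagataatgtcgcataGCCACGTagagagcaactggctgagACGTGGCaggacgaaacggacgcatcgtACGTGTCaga
LTI78: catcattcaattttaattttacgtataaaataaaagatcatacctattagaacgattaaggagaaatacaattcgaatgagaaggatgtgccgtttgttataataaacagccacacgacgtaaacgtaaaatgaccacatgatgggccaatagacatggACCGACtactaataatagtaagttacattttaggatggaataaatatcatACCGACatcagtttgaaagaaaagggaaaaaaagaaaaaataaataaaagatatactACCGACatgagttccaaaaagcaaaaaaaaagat
LEA7: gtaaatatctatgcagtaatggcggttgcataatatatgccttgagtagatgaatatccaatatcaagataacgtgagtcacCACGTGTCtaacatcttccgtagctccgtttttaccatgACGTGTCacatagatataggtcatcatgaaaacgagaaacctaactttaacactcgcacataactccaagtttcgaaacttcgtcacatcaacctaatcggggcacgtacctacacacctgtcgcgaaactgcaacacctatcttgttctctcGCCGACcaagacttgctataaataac
GolS2: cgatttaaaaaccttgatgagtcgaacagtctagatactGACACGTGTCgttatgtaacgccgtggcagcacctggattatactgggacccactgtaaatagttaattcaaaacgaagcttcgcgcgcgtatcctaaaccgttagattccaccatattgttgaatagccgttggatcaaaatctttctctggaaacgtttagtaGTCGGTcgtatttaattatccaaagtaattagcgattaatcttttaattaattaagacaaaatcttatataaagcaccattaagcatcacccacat
LTI65 held 3 ABRE and 1 DRE matches, and LTI78 held 3 DRE matches and no ABRE in this window. LEA7 and GolS2 each held 2 ABRE matches, 1 DRE and 1 G-box. In LEA7 the 2 ABRE matches were separate, and the G-box overlapped 1 of them. In GolS2 the 2 ABRE matches were 1 palindromic stretch read on both strands, and the G-box lay within it.

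Over all 21362 tested genes with such a window, ABRE letters stood in 7.87%, DRE letters in 8.96% and a G-box in 7.99% of promoters; an ABRE that overlapped a G-box stood in 3.97%. Among genes that rose at least 2-fold the shares were 21.3% for ABRE, 14.9% for DRE and 19.7% for the G-box. Among genes that fell at least 2-fold they were 5.02%, 6.95% and 5.79%. In the ABA and dehydration list, 12 of 32 promoters held an ABRE and 14 of 32 a DRE. A match is a description of letters and not a site shown to be used.

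LTI65 (RD29B; AT5G52300, chromosome 5, 21237021 to 21239531, TAIR10), a gene of unknown biochemical function used as an ABA marker, lay at 1.86, 4.5 and 2.85 CPM in the 0 mM libraries and at 71.7, 215 and 142 CPM in the 150 mM libraries. Every salt library was above every control library, and replicate 2 was the highest of both groups. The rise was 46.3-fold (log2 fold change 5.53 ± 0.97, adjusted p = 0.00341). Its tandem neighbour LTI78 (RD29A; AT5G52310, chromosome 5, 21240717 to 21243644) lay at 61.7, 117 and 83.3 CPM and 1024, 2936 and 1632 CPM, a 21.3-fold rise (log2 fold change 4.41 ± 0.60, adjusted p = 0.00105) with replicate 2 again highest in both groups. LEA7 (AT1G52690, chromosome 1, 19619724 to 19621534), which encodes a LEA protein, held 6.24, 17 and 5.14 CPM at 0 mM and 193, 469 and 315 CPM at 150 mM. Control replicate 2 was over 2-fold above the other controls but far below every salt library, and the rise was 34.3-fold (log2 fold change 5.10 ± 0.83, adjusted p = 0.00236).

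Dehydrins, hydrophilic proteins that protect membranes and enzymes, moved in the same direction from different starting levels. RAB18 (AT5G66400, chromosome 5, 26518277 to 26519447) was low in control roots at 1.53, 2.49 and 1.57 CPM and reached 31.8, 89.2 and 59.6 CPM under salt. ERD10 (AT1G20450, chromosome 1, 7087903 to 7089606) was already abundant at 305, 378 and 314 CPM and reached 1482, 3724 and 2109 CPM. The rise was thus 32.1-fold for RAB18 and 7.33-fold for ERD10 (adjusted p = 0.00141 and 0.000549), and in both genes the groups did not overlap. LTI30, a further dehydrin gene, rose 7.77-fold, and COR413-PM1, which encodes a membrane protein induced by cold and ABA, went from 500.5 ± 31.1 to 2496 ± 884 CPM (SD, n = 3), a 4.99-fold rise, and became 1 of the 5 most abundant transcripts per length at 150 mM. RD22, which encodes a BURP-domain protein, rose 6.7-fold with salt libraries at 55.3, 59 and 82.2 CPM; here replicate 3 was highest.

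The largest rises by the rule for named genes started from near 0. AT1G04560, annotated as an AWPM-19-like membrane protein, held 0.0864, 0.0333 and 0 CPM in control roots and 5.18, 6.73 and 6.44 CPM under salt (log2 fold change 7.2 ± 0.94, adjusted p = 0.000883). Control levels were at most 0.0864 CPM, so the fitted fold depends on the prior count and is no bound. AT5G50360, annotated with a von Willebrand factor A domain, moved in the same way, from 0.144, 0.222 and 0 CPM to 4.97, 10.6 and 6.49 CPM. The LEA genes AT3G17520, AT3G15670 and LEA4-5 rose 40.2-fold, 27.8-fold and 27-fold, and the uncharacterized gene AT4G33467 rose 26.6-fold. COR15A, which encodes a chloroplast-protecting protein, rose 26.4-fold to 4.79, 27.6 and 12.4 CPM, RD20, a caleosin gene, rose 29.5-fold and TSPO, an ABA-induced membrane protein gene, rose 27.8-fold.

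**Figure D1:**
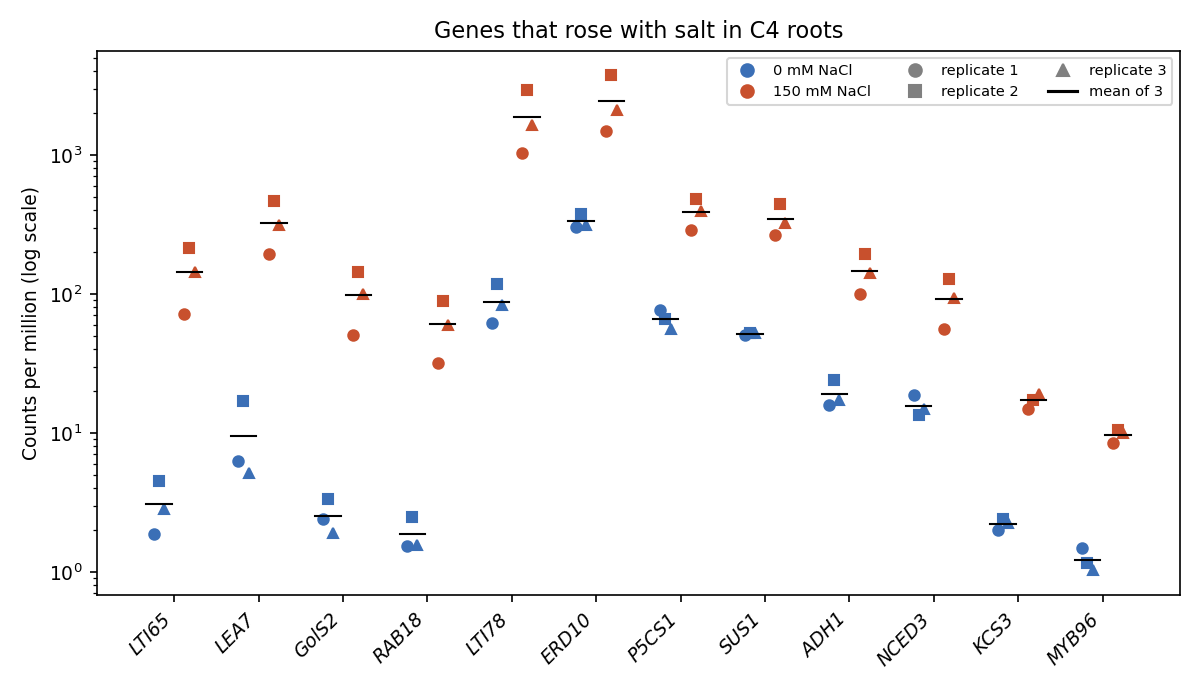
Levels of 12 genes that rose, in CPM on a log axis, in the 3 C4 libraries at 0 mM NaCl (blue) and the 3 at 150 mM (red), with marker shape for the replicate and a line for the mean. In every gene the red points lie above the blue ones; replicate 2 is the highest red point in 11 of the 12, all but KCS3, and KCS3 and MYB96 show the least spread.

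Signalling components of ABA rose beside its targets, while 4 of its receptors fell. Of 22 measured phosphatases, kinases and factors, 18 rose and 0 fell (13 to 17 with 1 library left out; median log2 fold change 1.43). HAI3, a clade A phosphatase gene (AT2G29380, chromosome 2, 12608675 to 12610350), held 1.14, 0.998 and 0.648 CPM and then 10.9, 51.5 and 25.1 CPM. The salt libraries spread widely, from 10.9 CPM in replicate 1 to 51.5 CPM in replicate 2, but none overlapped the controls, and the rise was 31.3-fold (log2 fold change 4.97 ± 0.73, adjusted p = 0.0015). The bZIP factor genes ABI5 and ABF1, whose products bind the ABRE, rose 5.05-fold and 3.43-fold, and OST1, a SnRK2 kinase gene, rose 2.57-fold (adjusted p = 0.00105, 0.00138 and 0.00133).

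Of 11 measured receptor genes, 4 fell and 2 rose (2 to 3 and 0 to 2 with 1 library left out; median log2 fold change -0.67), against 5.44% and 6.69% of all genes tested. The count that fell was 2 without each of replicates 1, 2 and 3 at 0 mM and replicates 2 and 3 at 150 mM. PYL4 lay at 102, 121 and 127 CPM in control roots and 41.4, 27.5 and 37.6 CPM in salt, with no overlap, a fall of 1.72 ± 0.36 on the log2 scale (adjusted p = 0.0075). PYL1 fell by 0.67 ± 0.12. PYL7 and RCAR1 (PYL9) went the other way, to 14.5, 19.5 and 13.7 CPM from 4.88, 5.83 and 5.07 CPM for PYL7 (3.02-fold) and 1.69-fold for RCAR1.

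Genes for ABA synthesis and for its breakdown both rose. NCED3 (AT3G14440, chromosome 3, 4831286 to 4834015), the dioxygenase gene for the rate-limiting cleavage of carotenoids to an ABA precursor, held 18.6, 13.5 and 14.9 CPM at 0 mM and 55.9, 129 and 93.2 CPM at 150 mM, a 5.91-fold rise (log2 fold change 2.56 ± 0.50, adjusted p = 0.00568). CYP707A1, whose product hydroxylates ABA and starts its breakdown, rose 3.0-fold from 50.4 ± 14.1 to 151 ± 51.5 CPM. ABA4 and AAO3, of the first and last parts of the synthesis pathway, rose 1.75-fold and 1.79-fold. In all, 7 of 17 measured members rose and 1 fell (5 to 6 with 1 library left out).

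Sugar and compatible solute genes rose in part. In proline metabolism 3 of 9 members rose, or 1 without replicate 2 at 0 mM or at 150 mM. P5CS1 (AT2G39800, chromosome 2, 16598072 to 16603319), which controls the flux into proline, went from 76.9, 65.8 and 56.2 CPM to 289.7, 483 and 396 CPM, a 5.87-fold rise (log2 fold change 2.55 ± 0.35, adjusted p = 0.00105) with no overlap. Its paralogue P5CS2 was higher on average but did not pass (log2 fold change 0.38 ± 0.16, adjusted p = 0.14). ALDH12A1 and DELTA-OAT, further members of the proline metabolism list, rose 1.46-fold and 1.62-fold. GolS2 (AT1G56600, chromosome 1, 21207537 to 21209635), a galactinol synthase gene that commits carbon to raffinose sugars, rose 38.4-fold, from 2.39, 3.33 and 1.92 CPM to 50.6, 145 and 99.7 CPM (adjusted p = 0.00302). MIPS3, an inositol phosphate synthase gene, fell by 0.94 ± 0.19 on the log2 scale. In the raffinose and inositol list 4 of 17 rose and 1 fell, beside 6.69% and 5.44% of all genes tested. The median log2 fold change of that list was 0.08, and 3 to 4 members rose with 1 library left out.

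SUS1, a sucrose synthase gene of sucrose breakdown, and SPS2F, a sucrose phosphate synthase gene of its synthesis, both rose. SUS1 held 50.5, 52.7 and 52.1 CPM in control roots and 265, 441 and 323 CPM in salt roots, a 6.62-fold rise, and SPS2F held 87.1, 77.2 and 96.9 CPM and 324, 704 and 457 CPM, a 5.68-fold rise (adjusted p = 0.00106 and 0.000883). The control libraries differed by little and the salt libraries by more, with replicate 2 highest for both. Across the sucrose, starch and trehalose list 11 of 37 rose and 3 fell (5 to 9 with 1 library left out, lowest without 150 mM replicate 2), the trehalose phosphatase gene TPPH among the falls (-1.07 on the log2 scale). Of 33 sugar carriers 9 rose and 2 fell, beside 6.69% and 5.44% of all genes tested. The rises were 4 to 7 with 1 library left out, lowest without 0 mM replicate 3, and 14 with only the C4 libraries fitted. SAG29 (SWEET15) rose 17.6-fold, and SWEET4 went from 0.0576, 0.111 and 0 CPM to 2.39, 6.44 and 4.59 CPM. The proton-coupled sucrose carrier SUC1 and the vacuolar carrier SWEET16 were the 2 that fell, by 1.35 ± 0.24 and 1.37 ± 0.21. ADH1, the alcohol dehydrogenase of fermentation, rose 7.56-fold from 15.9, 24.2 and 17.3 CPM to 99.2, 193 and 142 CPM, although only 3 of 12 hypoxia and fermentation genes rose and none fell.

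The lowest p of the whole comparison belonged to genes with little spread rather than the largest change. KCS3 (AT1G07720, chromosome 1, 2390531 to 2392628), annotated as a 3-ketoacyl-CoA synthase, the enzyme class that elongates very long chain fatty acids, held 1.99, 2.42 and 2.25 CPM and 14.8, 17.4 and 19.2 CPM. The 7.71-fold rise had adjusted p = 6.95e-06 by edgeR. MYB96 (AT5G62470, chromosome 5, 25078991 to 25081141), an ABA-responsive factor that activates wax synthesis genes, rose 7.93-fold to 8.51, 10.5 and 10 CPM, and DAA1, annotated as a P-loop ATPase, rose 5.73-fold to 52.1, 57 and 63.8 CPM. GRP-3, which encodes a glycine-rich wall protein, rose 7.4-fold (adjusted p = 0.000255). In these 4 genes replicate 2 did not exceed the other salt libraries by the margin seen in the dehydration genes.

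Several genes for lipids of the outer barriers rose. CER1 and CER3, which act together in wax alkane formation, rose 7.02-fold and 2.02-fold, to 13.8, 18.9 and 21.4 CPM for CER1, whereas CER4, which makes primary alcohols of wax, fell by 2.01 ± 0.40 on the log2 scale. Suberin is the lipid polymer of the endodermis and periderm. Of its genes 8 of 20 rose and 0 fell, beside 6.69% and 5.44% of all genes tested, and all 20 had a positive log2 fold change (median 0.73). GPAT7, an acyltransferase gene, went from 44.6, 29.4 and 32.3 CPM to 66.8, 165 and 101 CPM, and the exporter ABCG1, the factor MYB107 and the elongase KCS20 rose 2.39-fold, 2.29-fold and 1.82-fold. The suberin count was 2 without replicates 2 or 3 at 0 mM or replicate 2 at 150 mM and 10 without replicate 1 at 150 mM. Lipid transfer proteins, small secreted lipid carriers, had 4 of 13 members rising and 0 falling, or 7 rising without the 2 libraries that go against their labels and 8 with only the C4 libraries fitted; LTP3 and LTP2 rose 5.38-fold and 2.74-fold. Lipid transfer protein genes are closely related copies, and reads mapped with low quality were not counted, so the level of a single copy is uncertain.

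Transcription factor families had more rises than falls. Of 84 NAC genes 19 rose and 1 fell, of 93 MYB genes 19 rose and 6 fell, of 51 CBF, DREB and ERF genes 14 rose and 1 fell, of 66 WRKY genes 14 rose and 4 fell, and of 14 HD-ZIP class I genes 5 rose and 0 fell, beside 6.69% rising and 5.44% falling among all genes tested. With 1 library left out the rises were 9 to 18, 10 to 19, 8 to 15, 6 to 12 and 2 to 4. DREB2A, a DRE-binding activator, went from 22.8, 17 and 20.3 CPM to 56.7, 80.2 and 63.3 CPM (3.33-fold). HB-7 and HB-12, ABA-induced HD-ZIP factors, rose 4.82-fold and 5.03-fold. RAP2.11, which activates genes of low potassium response, was the ERF that fell, from 18.2, 12.5 and 20.5 CPM to 4.86, 7.12 and 5.17 CPM (log2 fold change -1.58 ± 0.19, adjusted p = 0.000484).

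HSFA6B, a heat shock factor gene, rose 17.4-fold to 15.8, 50.8 and 25.2 CPM. The heat shock list as a whole had 5 of 34 rising and 3 falling, beside 6.69% and 5.44% of all genes tested. With 1 library left out these were 2 to 4 and 0 to 3, with 0 falling without 150 mM replicate 2. The NAC genes NAC102, NAC080 and NAC100 rose 1.87-fold, 2.07-fold and 2.37-fold. Of the WRKY genes, 1 was among the 15 largest rises, WRKY30 (AT5G24110, chromosome 5, 8153115 to 8154710), which held 0.36, 0.588 and 0.482 CPM at 0 mM and 14.6, 8.85 and 17.6 CPM at 150 mM (28.5-fold; log2 fold change 4.83 ± 0.56, adjusted p = 0.000374). Unlike the dehydration genes, its lowest salt library was replicate 2. MYB108, MYB15 and WRKY28 shared that order, with 15.9, 6.37 and 17.6 CPM, 28.6, 18 and 32.3 CPM and 10.9, 6.31 and 15 CPM in salt replicates 1, 2 and 3.

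**Figure D2:**
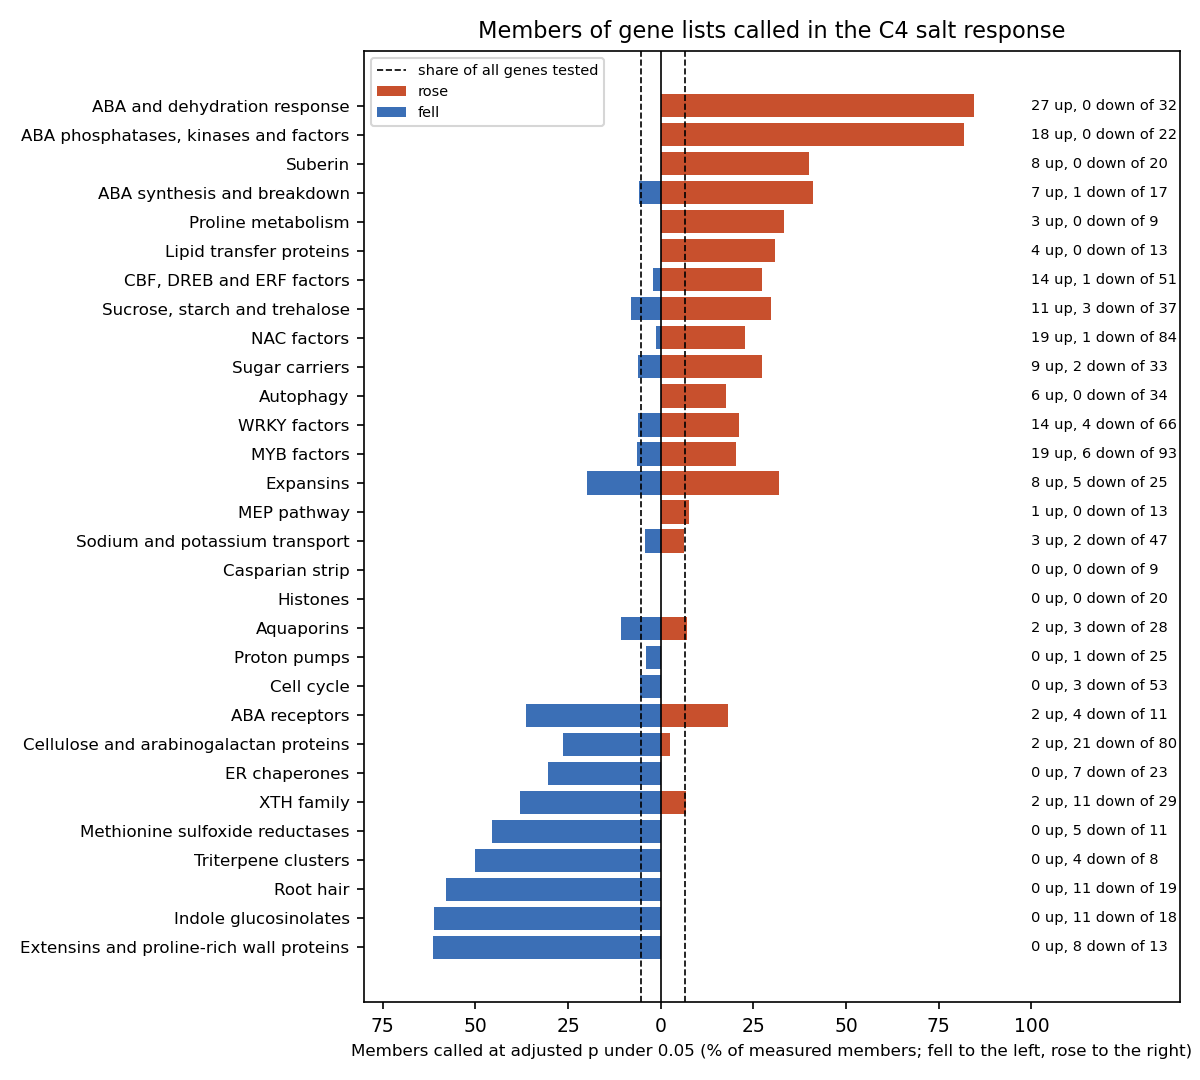
Share of the measured members of 30 gene lists that rose (red, to the right) or fell (blue, to the left) in C4 at adjusted p under 0.05, with the counts at the right and dashed lines at the shares of all genes tested, 6.69% rising and 5.44% falling. The ABA and dehydration list and the list of ABA phosphatases, kinases and factors lie far to the right, and the root hair, extensin and indole glucosinolate lists far to the left.

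Genes of root hair growth fell. Root hairs are tubes that grow at the tip of epidermal cells, fixed in position by a set of transcription factors and built by wall proteins and wall-loosening enzymes that the RHD6 and RSL factors activate. Of 19 measured members 11 fell and 0 rose (10 to 12 with 1 library left out), against 5.44% of all genes tested, with a median log2 fold change of -0.98. In bulk roots, fewer hair cells and less RNA per hair cell cannot be told apart. Promoters of 3 members that fell are shown because each holds the root hair element, a degenerate motif described before root hair genes, in capitals on either strand. They are again 300 bases of the TAIR10.1 RefSeq assembly before the gene start, for RHS18 (chr5:7426010-7426309, plus strand), EXPA18 (chr1:23331263-23331562, plus strand) and LRX1 (chr1:4069692-4069991, plus strand); the window of EXPA18 overlaps 1 other annotated gene.
RHS18: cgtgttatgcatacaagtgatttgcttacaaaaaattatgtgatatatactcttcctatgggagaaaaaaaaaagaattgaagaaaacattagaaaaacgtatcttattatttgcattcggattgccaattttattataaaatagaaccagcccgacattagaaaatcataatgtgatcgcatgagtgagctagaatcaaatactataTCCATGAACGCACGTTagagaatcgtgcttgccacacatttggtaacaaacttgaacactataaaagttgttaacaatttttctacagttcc
EXPA18: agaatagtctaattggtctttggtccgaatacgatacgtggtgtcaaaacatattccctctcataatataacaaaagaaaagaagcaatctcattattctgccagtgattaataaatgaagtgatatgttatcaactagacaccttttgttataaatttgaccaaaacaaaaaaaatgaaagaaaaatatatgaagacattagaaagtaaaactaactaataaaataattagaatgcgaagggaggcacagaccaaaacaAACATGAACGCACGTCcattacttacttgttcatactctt
LRX1: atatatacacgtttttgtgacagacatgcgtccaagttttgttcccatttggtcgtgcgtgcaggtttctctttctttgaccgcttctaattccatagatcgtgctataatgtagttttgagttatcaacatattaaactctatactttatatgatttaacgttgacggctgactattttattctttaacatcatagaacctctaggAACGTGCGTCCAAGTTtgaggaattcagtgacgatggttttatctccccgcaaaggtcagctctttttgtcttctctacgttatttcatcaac
The root hair element was matched in 0.941% of all tested promoters, in 7 of 19 of the root hair list, in 4.44% of genes that fell at least 2-fold and in 1.05% of those that rose at least 2-fold. Because the motif was described before root hair genes, its share in the root hair list is no independent result. The genes that fell include members of that list.

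RHS18 (AT5G22410, chromosome 5, 7426310 to 7427964), a root-hair-specific peroxidase gene, held 30, 31.7 and 30.3 CPM in control libraries and 5.82, 4.88 and 4.89 CPM in salt libraries. Both groups were tight and far apart, a fall of 2.56 ± 0.29 on the log2 scale (adjusted p = 0.000287). EXPA18 (AT1G62980, chromosome 1, 23331563 to 23333246), an expansin that loosens the hair wall, went from 39.9, 37.3 and 47.2 CPM to 12.8, 14.2 and 12.5 CPM, and LRX1 (AT1G12040, chromosome 1, 4069992 to 4072681), a leucine-rich repeat extensin, from 81.4, 58.2 and 111 CPM to 24.5, 23.5 and 21.7 CPM. The salt libraries of both genes were close to each other, and all lay under the lowest control. The falls were 1.65 ± 0.18 and 1.85 ± 0.23 on the log2 scale (adjusted p = 0.000255 and 0.000576). PRP1 and PRP3, proline-rich wall proteins of hairs, fell by 1.55 ± 0.21 and 2.01 ± 0.28, and SHV2 (COBL9), a wall-anchored protein needed for hair growth, by 1.40 ± 0.23.

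Of the 8 members that did not pass the test, RHD6, RSL1, RSL2, RSL4, GL2, MYB66 (WER) and CPC are transcription factor genes. These factors act in hair position, fate or growth. RHD2, the remaining member, encodes the NADPH oxidase of hair tips. The log2 fold changes of the factor genes ran from -0.46 for RSL4 (adjusted p = 0.0856) to 0.05 for MYB66. RHD2 lay at -0.53 (adjusted p = 0.0762). After RHS18, the largest falls were those of MRH6 at -2.49, PRP3 at -2.01 and RHS19 at -1.89 on the log2 scale.

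Wall genes beyond the hair list fell as well. Extensins are rod-like wall glycoproteins, and 8 of 13 measured extensin and proline-rich members fell and 0 rose. The 8 falls held in every fit that left out 1 library, and without the 2 libraries that go against their labels 1 member rose; the median log2 fold change was -1.55. PRP1, PRP3 and LRX1 belong to both lists. EXT10 (AT5G06640, chromosome 5, 2039598 to 2041928) went from 65.7, 56.7 and 128 CPM to 14.3, 11.5 and 10.8 CPM (log2 fold change -2.77 ± 0.50, adjusted p = 0.00394), with 0 mM replicate 3 the highest control and the salt libraries close together. AT5G06630, its extensin-like neighbour, went from 43, 50.6 and 84.5 CPM to 9.8, 8.17 and 7.43 CPM, and the pair share repeats, so their split of reads is uncertain. EXT3 (AT1G21310, chromosome 1, 7453245 to 7455009), the most abundant extensin at 8711 ± 969.9 CPM, did not pass (log2 fold change -0.32 ± 0.19, adjusted p = 0.298).

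Xyloglucan endotransglucosylase/hydrolases (XTHs), which cut and rejoin the hemicellulose that ties cellulose fibrils, had 11 of 29 members falling and 2 rising (6 to 9 with 1 library left out, lowest without 150 mM replicate 3). XTH13 held 14.4, 16.9 and 21.5 CPM and 2.51, 2.26 and 1.95 CPM, a fall of 2.97 ± 0.45 on the log2 scale, and XTH26 held 4.02, 6.09 and 9.38 CPM and 0.442, 0.207 and 0.90 CPM, a fall of 3.63 ± 0.92. The 0 mM libraries of XTH26 differed by over 2-fold among themselves, but none overlapped the salt libraries. XTH12, XTH14 and XTH16 fell by 2.68 ± 0.54, 1.1 ± 0.23 and 1.67 ± 0.25. In the cellulose and arabinogalactan list 21 of 80 fell and 2 rose (11 to 17 with 1 library left out). AGP3 went from 81.8, 74.2 and 96.4 CPM to 25.6, 21.3 and 20.5 CPM, FLA2, FLA8 and CESA2, the last a cellulose synthase of primary walls, fell by 1.20 ± 0.21, 1.09 ± 0.18 and 0.72 ± 0.13, and the low-level FLA6 by 3.06 ± 0.82.

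**Figure D3:**
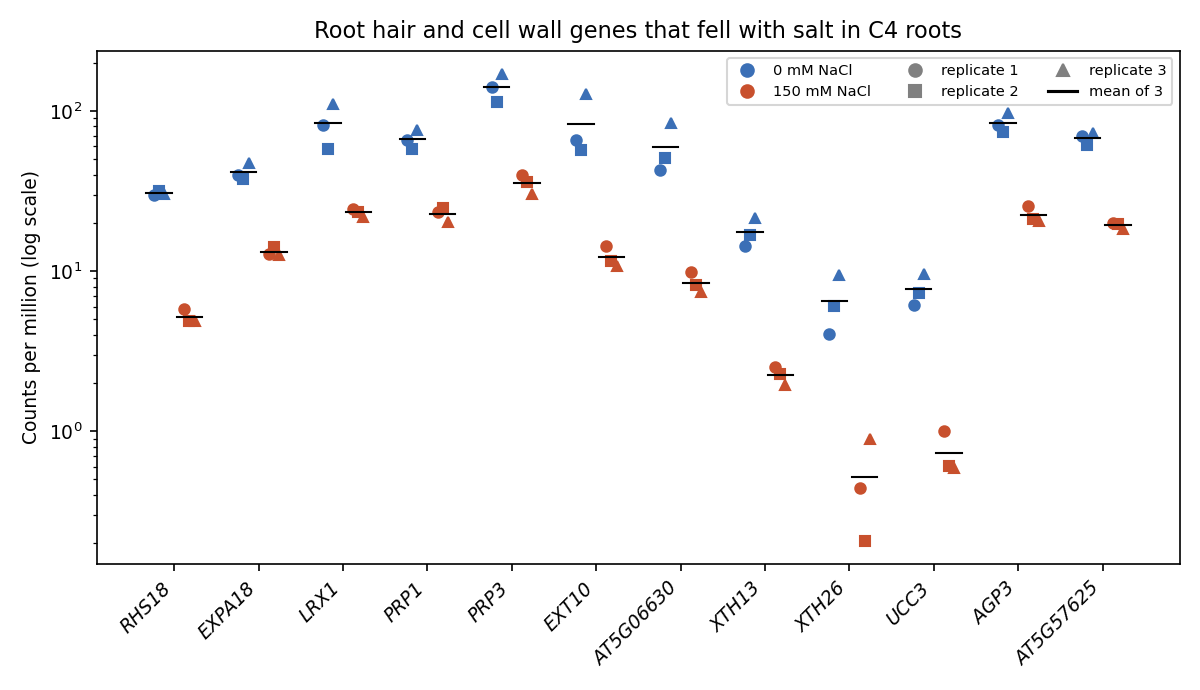
Levels of 12 root hair and wall genes that fell, in CPM on a log axis, in the 3 C4 libraries at 0 mM NaCl (blue) and the 3 at 150 mM (red), with marker shape for the replicate and a line for the mean. In every gene all red points lie below all blue points, and RHS18 goes from 30.7 ± 0.906 to 5.19 ± 0.542 CPM (SD, n = 3).

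Expansins, which loosen walls without cutting them, went both ways: 8 of 25 rose and 5 fell (2 to 7 and 1 to 3 with 1 library left out), beside 6.69% and 5.44% of all genes tested. EXPA16 rose 4.89-fold from 0.389, 0.721 and 0.799 CPM, and EXPA1 and EXLA1 rose 1.8-fold and 2.32-fold, while EXPA18 and EXPA7, which belong to root hairs, fell by 1.65 ± 0.18 and 0.78 ± 0.18. The list of class III peroxidases, which crosslink walls, holds 13 genes and not the whole family. Of these 13, 3 fell and 0 rose (2 to 4 falling with 1 library left out). PER4 went from 121, 108 and 119 CPM to 43, 28.1 and 41.3 CPM. The peroxidase genes AT1G49570, AT1G34510 and AT1G05250 are among the 15 largest falls, at -3.02, -2.77 and -2.73 on the log2 scale. Of these only AT1G05250 is in the peroxidase list, and RHS18 is also outside it. The lowest p among falls belonged to AT3G12540, annotated as a ternary complex factor MIP1 leucine-zipper protein, at 13.1, 10 and 13.5 CPM and 3.71, 3.77 and 3.2 CPM (log2 fold change -1.77 ± 0.16, adjusted p = 4.97e-05), followed by MOP10, annotated as a pollen Ole e 1 family protein, AT2G16980, a major facilitator protein, and AT5G57625, a cysteine-rich secretory protein, with falls of 1.31 ± 0.13, 1.21 ± 0.12 and 1.82 ± 0.19. UCC3, which encodes the copper protein uclacyanin, fell by 3.40 ± 0.47, and the RING protein gene ARI12 by 3.09 ± 0.60.

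Indole glucosinolates are tryptophan-derived compounds that roots store against attackers, and 11 of 18 genes of their synthesis fell and 0 rose (4 to 8 with 1 library left out, lowest without 150 mM replicate 2). CYP83B1 lay at 1039.7, 898 and 1017 CPM in control roots and 545, 526 and 553 CPM in salt roots, so the groups stood apart with little spread (log2 fold change -0.86 ± 0.18, adjusted p = 0.00674). CYP79B2, SUR1 and UGT74B1, enzymes before and after that step, fell by 0.78 ± 0.18, 0.73 ± 0.14 and 0.94 ± 0.16. Of 8 genes of root triterpene clusters 4 fell and 0 rose. THAS1, the thalianol synthase, went from 1236, 896 and 920.2 CPM to 386, 565 and 439 CPM, and CYP708A2 and CYP705A5, which modify thalianol, fell by 1.02 ± 0.20 and 1.20 ± 0.24. TPS13, a terpene synthase gene, fell from 12.6, 4.34 and 4.46 CPM to 1.22, 0.813 and 0.746 CPM, and the flavonoid genes TT4 (chalcone synthase) and TT5 (chalcone isomerase) by 1.32 ± 0.29 and 1.09 ± 0.32. In the flavonoid list 1 of 10 rose and 3 fell (1 to 2 falling with 1 library left out). CBP60G, a regulator of salicylic acid synthesis, fell by 2.74 ± 0.59, whereas FRK1, a receptor kinase gene, rose 3.01-fold. Of the 19 camalexin and immune genes in their list 2 rose and 1 fell, beside 6.69% and 5.44% of all genes tested. The falling share was near that of all genes.

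Some redox genes fell from levels that varied between control libraries. MSRB7, a methionine sulfoxide reductase that repairs oxidized methionine, held 670.02, 248 and 158 CPM at 0 mM and 36.6, 86.7 and 63.9 CPM at 150 mM. Replicate 1 was over 2-fold above the other controls, yet the groups did not overlap (log2 fold change -2.52 ± 0.59, adjusted p = 0.0146). MSRB9, MSRB6 and MDHAR, the last a monodehydroascorbate reductase of ascorbate recycling, shared the high replicate 1, with 885, 443 and 309.9 CPM, 76.3, 25.7 and 14.4 CPM and 873, 331 and 293 CPM in controls, and fell by 2.14 ± 0.40, 2.71 ± 0.56 and 2.41 ± 0.42. In all, 5 of 11 methionine sulfoxide reductases fell and 0 rose, or 3 fell without replicate 1 or 3 at 150 mM or with only the C4 libraries fitted. CAT1, a catalase, rose 2.93-fold from 30.1, 22.7 and 24.6 CPM to 74, 76.9 and 75.8 CPM, MDAR4 rose 2.08-fold, and APX1, the main cytosolic ascorbate peroxidase, fell by 0.51 ± 0.14.

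Chaperones of the endoplasmic reticulum had 7 of 23 members falling and 0 rising, but the count was 0 to 2 when any 1 library was left out (0 without replicate 2 or 3 at 150 mM), so it rests on all 6 libraries. CNX1 and CRT1b, lectin chaperones, lay at 496, 521 and 548 CPM and 484, 464 and 437 CPM in controls and at 309, 248 and 288 CPM and 313, 258 and 302 CPM in salt. Autophagy genes had 6 of 34 rising and 0 falling, 0 without replicate 2 at 150 mM, with 32 of 34 log2 fold changes positive; G18F and ATG13 rose 2.16-fold and 1.6-fold. Of 38 glutathione transferases 4 rose and 7 fell, beside 6.69% and 5.44% of all genes tested, the falls being 4 without 150 mM replicate 2 and 12 by DESeq2. Among them GSTU9 rose 3.22-fold and GSTF11 fell by 1.70 ± 0.29. In the cell cycle list 3 of 53 fell and 0 rose (0 to 2 falling with 1 library left out), a share near the 5.44% of all genes tested, among the falls the D-type cyclin CYCD3;1 (log2 fold change -0.85 ± 0.25, adjusted p = 0.0352).

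The lists of other hormones are read beside the 6.69% of all genes tested that rose and the 5.44% that fell. In the cytokinin list 4 rose and 4 fell of 31 (2 to 3 and 2 to 4 with 1 library left out). LOG5 and LOG1, which release active cytokinin, rose 9.58-fold and 5.16-fold, while IPT3, an isopentenyltransferase that starts its synthesis, fell from 15.9, 18 and 19.6 CPM to 5.15, 2.41 and 4.65 CPM and the response regulator ARR7 by 0.69 ± 0.15. In the gibberellin list 6 of 26 rose and 2 fell (3 to 5 and 1 to 2). GASA3, a gibberellin-regulated peptide gene, went from 0.0288, 0.0776 and 0 CPM to 2.18, 6.86 and 3.01 CPM and GASA4 rose 1.81-fold, while GASA1 fell by 1.07 ± 0.19. Among 63 auxin genes 6 rose and 5 fell (2 to 4 and 2 to 4), shares near those of all genes, with the Aux/IAA genes IAA2 and IAA11 up 1.83-fold and 1.56-fold and the import carrier LAX3 down by 0.92 ± 0.16. PIN5, an auxin carrier of the endoplasmic reticulum, fell from 1.9, 1.86 and 1.13 CPM to 0.159, 0.0296 and 0.257 CPM. Ethylene genes had 4 of 22 rising and 0 falling, or 1 rising without 0 mM replicate 1 or 150 mM replicate 3, among the rises the ACC synthase ACS2 at 3.58-fold.

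Ion and nutrient genes held few calls. Of 47 sodium and potassium transport genes 3 rose and 2 fell, close to the shares of all genes tested; 1 rose without replicate 1 or 2 at 0 mM or replicate 2 or 3 at 150 mM, and 6 rose with only the C4 libraries fitted. GORK, the outward potassium channel, rose 3.47-fold from 33.4, 40.6 and 27.3 CPM to 86.3, 154 and 111 CPM, and SKOR, the xylem-loading potassium channel, fell by 0.64 ± 0.17. SOS1, the plasma membrane sodium exporter, lay at 50.3, 39.5 and 56 CPM and 48.8, 60 and 44.4 CPM and HKT1, the sodium carrier of the vasculature, at 12.3, 11.2 and 10.6 CPM and 11.2, 8.69 and 11.3 CPM. Their groups overlapped, and neither passed (adjusted p = 0.853 and 0.748). Of 28 aquaporins 2 rose and 3 fell (0 to 2 and 1 to 4 with 1 library left out), with PIP1B up 1.83-fold to 1600.5, 2162 and 1576 CPM and DELTA-TIP, PIP2;4 and PIP1;5 down by 1.06 ± 0.19, 1.05 ± 0.25 and 0.58 ± 0.14.

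Iron genes went both ways. FER1, ferritin of iron storage, rose 3.77-fold from 51.9, 78.4 and 49.6 CPM to 221, 214 and 243 CPM, and AT1G21140, a vacuolar iron transporter family gene, rose 4.91-fold. OPT3, which loads iron into phloem, fell from 79, 71 and 81.4 CPM to 29.9, 22 and 24.8 CPM and IRT2 by 1.35 ± 0.32; in the list, 3 of 26 rose and 5 fell, the falls being 1 to 4 with 1 library left out (1 without replicate 3 at 0 mM or at 150 mM). In the phosphate list 4 of 24 rose and 0 fell, the rises being 3 without 150 mM replicate 1 and 2 without any other of the 6 libraries, with the acid phosphatase PAP17 up 3.25-fold. CCA1 and TOC1, genes of the circadian clock that peak at opposite times of day, rose 2.43-fold and 1.64-fold, in a list with 4 of 12 rising and 1 falling (1 to 3 rising with 1 library left out). No label states the time of day of harvest.

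Isoprene synthase uses dimethylallyl diphosphate from the plastid MEP pathway, of which 1 of 13 genes rose and 0 fell, a rising share near the 6.69% of all genes tested. DXR, the second enzyme, held 30.4, 35.7 and 35.3 CPM and 46.3, 49.8 and 44.9 CPM, a 1.39-fold rise (adjusted p = 0.028). The endogenous RBCS1A (AT1G67090, chromosome 1, 25048158 to 25049667), whose promoter drives the transgene, lay at 22, 36.7 and 16.7 CPM and 29.7, 21.8 and 22 CPM; the groups overlapped and it did not pass (log2 fold change -0.04 ± 0.36, adjusted p = 0.96). Levels of the introduced gene were not analysed here. Carotenoid genes PSY and ZDS rose 1.99-fold and 2.0-fold, and in the mevalonate list 2 of 14 fell, HMGS by 0.75 ± 0.14 and MK by 0.42 ± 0.09. The most abundant transcripts per length in control roots were PYK10, EXT3, GRP9, DOX1 and AT2G43150, none of which passed the test (PYK10, a root beta-glucosidase, at 11233 ± 527 and 8778 ± 581 CPM).

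Replicates at 150 mM did not rise evenly. Among the 1430 genes that rose, replicate 2 was the highest salt library in 999 (69.9%) and replicate 1 the lowest in 852 (59.6%), beside 37.8% and 34.8% over all genes tested. In the ABA and dehydration list replicate 2 was highest in 23 of 27 risen genes. Replicate 2 was the lowest salt library in 231 of the 1430 (16.2%), fewer than the 37.8% over all genes tested. In 19 risen genes replicate 2 lay at or under the highest control library, against 9 for replicate 1 and 1 for replicate 3.

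ABCG40, which encodes an ABC transporter that can import ABA, was among the 4 genes with the widest spread of all risen genes of at least 50 CPM, with 8.56, 4.9 and 9.32 CPM at 0 mM and 78.6, 3.02 and 98 CPM at 150 mM. Replicates 1 and 3 were over 8-fold above the highest control, and replicate 2 was below the lowest control, so the call (log2 fold change 2.98 ± 0.84, adjusted p = 0.0352) rests on 2 of 3 libraries. GAD4, a glutamate decarboxylase gene, held 48.8, 5.72 and 76.8 CPM under salt after 6.21, 4.54 and 8.05 CPM, and CYP81D8, a cytochrome P450 gene, held 77.1, 14.2 and 93.6 CPM after 18.3, 14.3 and 15.9 CPM. The same order held for LOX3 and LOX4, lipoxygenase genes of jasmonate synthesis (6.65, 1.14 and 9.36 CPM and 11.2, 2.48 and 14.2 CPM), for the ACC synthase ACS8 (2.3, 0.325 and 2.75 CPM), for Hsp70b (18.1, 9.89 and 19.7 CPM) and for the glycosyltransferase gene AT1G05675 (6.99, 0.946 and 8.79 CPM). The jasmonate list as a whole had 2 of 27 rising and 2 falling, beside 6.69% and 5.44% of all genes tested. Its median log2 fold change was -0.33, and with 1 library left out 0 to 3 rose and 1 to 2 fell. At the other end, ROT3, FLK, ERD15 and AT5G17900 were the risen genes of at least 50 CPM with the least spread; ROT3, a cytochrome P450 of brassinosteroid metabolism, held 85.5, 85.1 and 85.9 CPM.

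**Figure D4:**
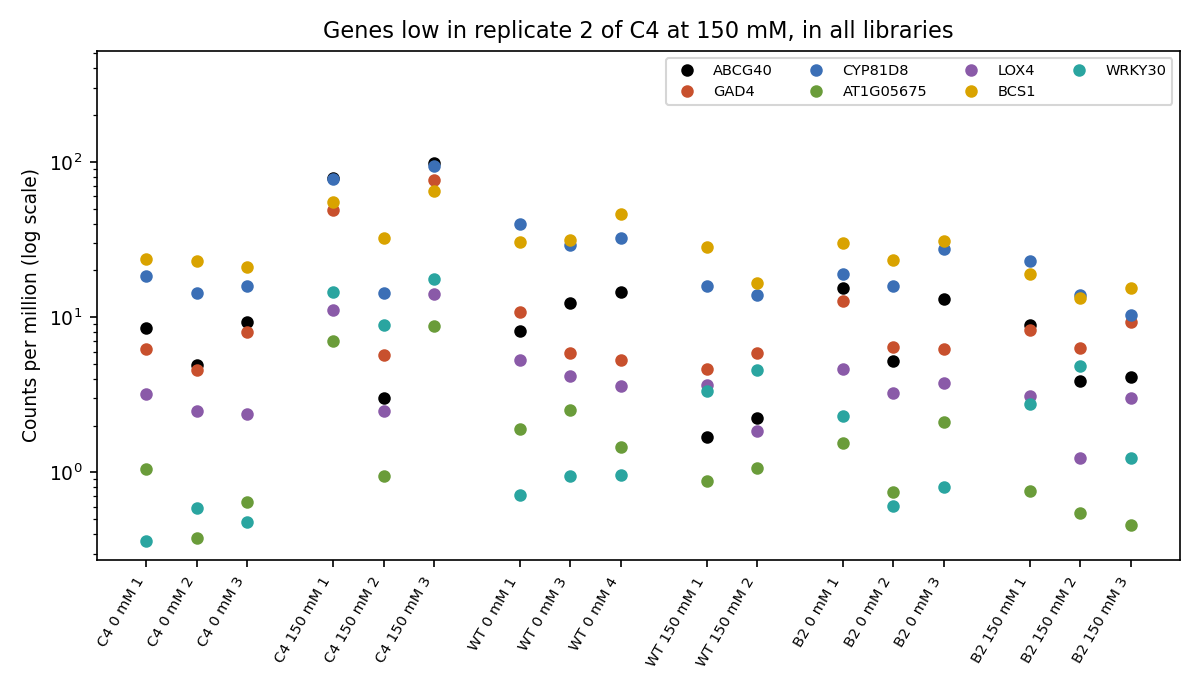
Levels of 7 genes, in CPM on a log axis, in each of the 17 distinct libraries, grouped by genotype and NaCl concentration; each point is 1 library. In C4 at 150 mM all 7 genes are lower in replicate 2 than in replicates 1 and 3, with ABCG40 at 3.02 CPM beside 78.6 and 98.0 CPM; the other salt libraries do not reach the levels of replicates 1 and 3.

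In the other genotypes every salt library lay below replicates 1 and 3 of C4 for these genes. ABCG40 held 1.7 and 2.23 CPM in the WT and 8.85, 3.85 and 4.12 CPM in the B2 libraries at 150 mM, GAD4 held 4.6 and 5.86 CPM and 8.21, 6.33 and 9.28 CPM, and WRKY30 held 3.35 and 4.57 CPM and 2.77, 4.81 and 1.25 CPM. The difference in salt response between C4 and each other genotype was tested for every gene as an interaction. By edgeR's quasi-likelihood test 0 of 21367 genes passed against WT and 0 against B2 after adjustment; at an unadjusted p under 0.05 there were 444 larger (2.08% of genes tested) and 331 smaller (1.55%) log2 responses in C4 against WT and 432 (2.02%) and 344 (1.61%) against B2. DESeq2 called 6 genes against WT and 16 against B2. Both counts include AT1G75945, whose fitted log2 differences of -23.64 against WT and -19.08 against B2 are too extreme to be read as measured sizes.

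By the rule for named genes, the interactions with the lowest p were those of B120, BCS1 and AT5G52810 upward and MLO14, CSLC12 and AT1G04680 downward against WT, and of BCS1, WRKY30 and AT1G05675 upward and AT3G12540, AT2G30220 and AT2G23400 downward against B2. None passed by edgeR, while DESeq2 called B120, BCS1 and MLO14 of these against WT and BCS1, WRKY30, AT1G05675, AT3G12540 and AT2G30220 against B2. BCS1, which encodes a mitochondrial AAA-type ATPase, lay at 23.8, 22.9 and 20.9 CPM and 54.7, 32.4 and 64.5 CPM in C4, a 2.24-fold rise, at 30.2, 31.2 and 46.1 CPM and 28.3 and 16.6 CPM in WT, and at 29.9, 23.5 and 30.9 CPM and 19, 13.2 and 15.4 CPM in B2. Its interaction did not pass by edgeR (adjusted p = 1 against WT and 0.785 against B2) and passed by DESeq2 (log2 difference 1.84, adjusted p = 0.0133 against WT; 1.98, adjusted p = 0.000317 against B2). With replicate 2 of C4 at 150 mM left out, 8 genes passed against WT and 7 against B2, of which AT1G05675, ABCG40, GSTU11, GAD4, BCS1 and CYP81D8 were called against each; that fit removes the library in which these genes were low. Without WT 150 mM replicate 2, which goes against its label, 2 genes passed against WT (AT2G15220 and PP2-A7), and the same 2 passed without both such libraries, when WT at 150 mM had 1 library assumed to vary like the other groups. GSTU11, AT2G15220, PP2-A7 and AT1G75945 were named after their values were seen.

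Most of the C4 response was also called in the other genotypes, which shared no samples with C4. The calls in WT and B2 include the libraries that go against their labels. All calls share the estimate of spread of the same fit, and the overlap without those libraries was not examined. Of the 1430 genes that rose in C4, 1062 (74.3%) were called upward in WT, which is 53.5% of the 1984 risen WT genes, and 990 (69.2%) in B2, which is 48.2% of 2054. Of the 1162 that fell, 734 (63.2%) were called downward in WT (46.7% of 1571) and 660 (56.8%) in B2 (46.6% of 1417). In both WT and B2, 842 (58.9%) of the risen and 508 (43.7%) of the fallen C4 genes were called. A further 220 risen and 276 fallen C4 genes were called in neither, which does not show that they differed. Over all genes tested, 9.29% rose and 7.35% fell in WT and 9.61% and 6.63% in B2. The median log2 fold change of the C4 risen genes was 0.94 in C4, 0.95 in WT and 0.80 in B2, and that of the fallen genes was -0.93, -0.83 and -0.69; the C4 values are those the genes were chosen on.

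Root hair genes had their lower median in C4. Their median log2 fold change was -0.98 in C4, -0.60 in WT and -0.41 in B2, with 11, 7 and 5 of 19 called downward, and for extensins it was -1.55, -0.71 and -0.63, with 8, 8 and 3 of 13 called. These counts come from the fit that includes the 2 libraries that go against their labels, so they do not rank the genotypes. Without those libraries, the medians were -0.98, -0.74 and -0.43 for root hair genes and -1.55, -1.29 and -0.78 for extensins. Both other genotypes then lay nearer to C4. Counts called are not compared for that fit, because WT under salt then has no replicate. RHS18 fell by 2.56 in C4, 1.55 in WT and 1.47 in B2, and LRX1 by 1.85, 0.97 and 0.78. No root hair or extensin gene passed either interaction test, so a larger fall in C4 is not shown. The ABA and dehydration list had medians of 2.5, 2.90 and 2.44 in C4, WT and B2. Without the 2 libraries that go against their labels they were 2.5, 3.21 and 2.51. The log2 response was smaller in C4 for 27 of the 32 members against WT and for 17 against B2. None of these members passed either interaction test.

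**Figure D5:**
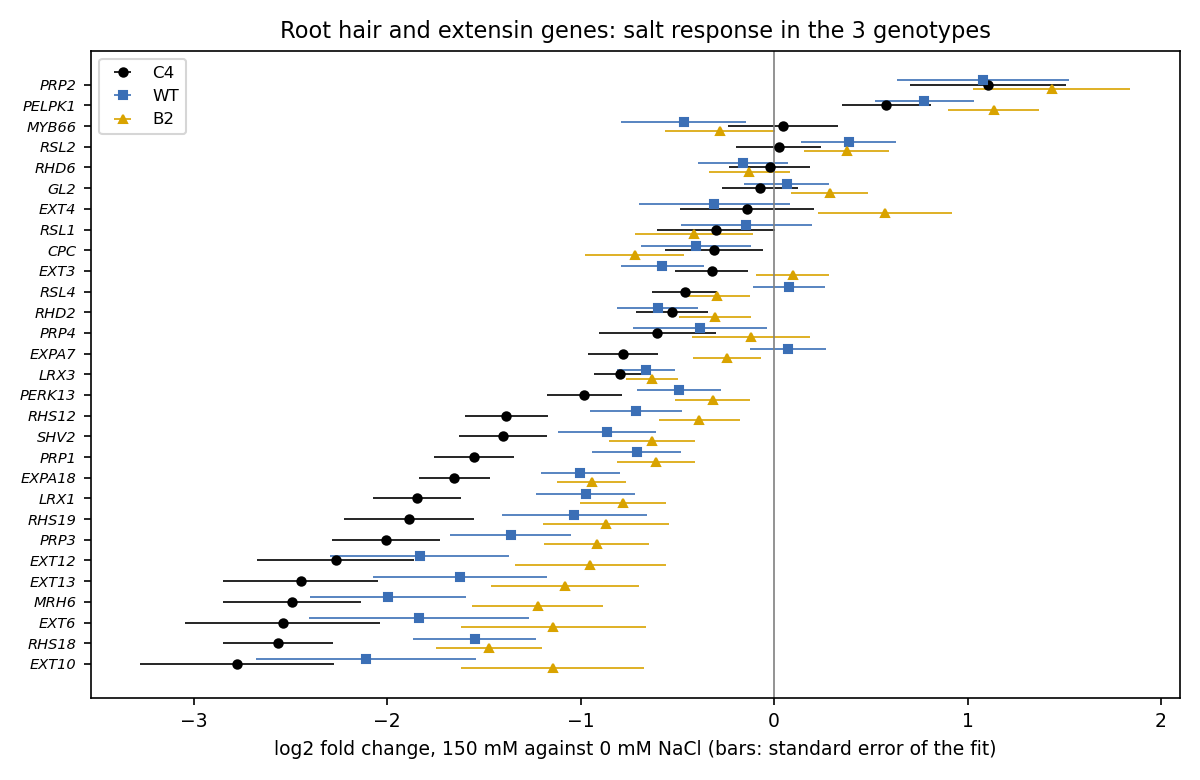
Log2 fold change (150 against 0 mM NaCl) of 29 root hair and extensin genes in C4 (black circles), WT (blue squares) and B2 (yellow triangles), with bars for the standard error of the fit over 17 libraries. Genes are sorted by the C4 value, from PRP2 at the top to EXT10 at the bottom, where C4 lies at -2.77 and B2 at -1.14; no difference between genotypes passed the interaction test by edgeR.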

How the data were processed

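RNA of roots was sequenced as stranded mRNA libraries, per the labels' protocols, and the authors deposited 1 table of raw read counts per gene for 18 libraries. Per the file headers, featureCounts 2.0.3 counted reads over exons of Araport11 gene models on the reverse strand (strand setting 2) with a mapping quality of at least 10, each read of a pair on its own. FastQC 0.12.1, fastp, STAR 2.7.11a and TAIR10 are named in the submitters' processing notes. Gene lengths, in bases, are those of the deposited table and were used only for levels per length.

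Libraries were grouped by genotype and NaCl in their labels and numbered in accession order. The WT 0 mM columns 1 and 2 were identical in 24515 of 24532 genes; they were counted as 1 library and the other 17 genes were left out. The remaining 17 libraries entered 1 edgeR 4.0.16 fit (R 4.3.3): TMM scaling, filterByExpr, 1 mean per group and the robust quasi-likelihood F test, with p-values of all 21367 genes adjusted by Benjamini and Hochberg's method and called under 0.05. The fit was tested on simulated data. CPM values are counts scaled by library size and TMM factor to a common total, ± is the SD over 3 libraries for levels and the standard error for log2 fold changes, and folds are those of the fit.

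Genes named are the 15 largest changes per direction among called genes of at least 5 CPM with no overlap, the 5 lowest p per direction, the 4 lowest adjusted p in each list, the 4 largest and 4 smallest coefficients of variation among risen genes of at least 50 CPM, the 5 highest counts per length, a few always named and the 3 lowest p per direction in each interaction. MRD1, the root hair list members and the replicate 2 set were named after their values were seen. The members and lists were chosen with earlier results of these data known. Alternatives were DESeq2 1.42.0 and its size factors, no filter, fits of only the groups compared, and fits without single libraries or without the 2 that go against their labels. Promoters and gene names come from the TAIR10.1 RefSeq assembly; 99.7% of gene spans in the table equal its own.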

Additional observations from a re-analysis of the deposited data

How the results depend on the processing

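The C4 count of 2592 genes was 2563 with DESeq2 size factors, 2492 with no filter, 3556 with DESeq2, 3530 with only C4 libraries fitted and 2666 without the 2 libraries against their labels, and ranged from 1310 to 1984 with 1 C4 library left out; fewer samples enter those fits. Interactions, at 0 by edgeR, numbered 6 against WT and 16 against B2 with DESeq2, 2 against WT without the 2 libraries, and 0 to 8 against WT and 0 to 7 against B2 with 1 library left out. Of 191 named genes under 11 alternatives each, 11 of 2101 log2 fold changes turned sign, all in genes that did not pass. Without 0 mM replicate 2 these were RBCS1A (0.34), SOS1 (-0.05), GRP9 (0.12), DOX1 (-0.02) and AT5G52810 (0.01). Without 150 mM replicate 2 they were MLO14 (-0.21), RBCS1A (0.04), SOS1 (-0.06), GRP9 (0.02) and DOX1 (-0.02), and without 150 mM replicate 3 RBCS1A (0.03). Over the fits with 1 library left out, these values ran from -0.21 to 0.53 for MLO14, -0.27 to 0.34 for RBCS1A, -0.06 to 0.19 for SOS1, -0.16 to 0.12 for GRP9, -0.02 to 0.30 for DOX1 and -0.11 to 0.01 for AT5G52810. With 1 library left out, 19 to 34 of the 191 lost their call. The cause was not tested. No paired analysis was possible because the replicate numbers were given in accession order and the labels pair no libraries. With 3 libraries a group, small changes of genes with few counts were not detectable.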

Other observations

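Further groups held members that passed the test in C4. Of 83 calcium sensor and annexin genes 12 rose and 8 fell, beside 6.69% and 5.44% of all genes tested, and with 1 library left out the rises were 3 to 12, lowest without replicate 2 at 150 mM, and the falls 3 to 7, lowest without replicate 3 at 150 mM. CML23, a calmodulin-like gene, went from 6.27, 5.42 and 5.04 CPM to 11.9, 18.2 and 13.1 CPM (log2 fold change 1.37 ± 0.23), and CPK25, a calcium-dependent kinase gene, from 6.52, 4.17 and 5.93 CPM to 1.15, 1.51 and 1.7 CPM (-1.93 ± 0.31). Of 36 phenylpropanoid and lignin genes 5 rose and 3 fell (2 to 6 and 2 to 3 with 1 library left out). Laccases, which polymerize lignin units, stood on both sides, LAC12 at 1.62 ± 0.26 and LAC8 at -1.22 ± 0.23 on the log2 scale. Of 53 signalling peptide genes 2 rose and 5 fell (0 and 2 to 5, with 8 falling without the 2 libraries that go against their labels), with RALFL22 going from 49.7, 56.1 and 54.6 CPM to 30.2, 31.8 and 29.5 CPM. Of 23 amino acid breakdown genes 4 rose and 0 fell (1 to 2 rising, and 10 with only the C4 libraries fitted); ALDH2B7, an aldehyde dehydrogenase gene, went from 123, 103 and 93.7 CPM to 233, 418 and 249 CPM (1.49 ± 0.32), and its groups did not overlap.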
